A study of Schizosaccharomyces pombe with 12 samples.

Results

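The transcripts of 5 silencing genes of Schizosaccharomyces pombe (fission yeast), clr1, clr2, clr3, mit1 and sir2, were followed in 12 libraries. They were taken by name from the 7013 genes counted, and all 5 were found in every library. Total RNA depleted of ribosomal RNA was sequenced in 4 groups with 3 libraries each. The first group had wild-type histone H3 (WT), the second H3 with glycine 34 replaced by arginine (G34R) and the third H3 with glycine 34 replaced by valine (G34V). The fourth group carried wild-type H3 and was labelled Set2D, read here as a deletion of set2, which encodes the methyltransferase of H3 lysine 36. All cultures grew overnight in the rich medium YES at 25 °C, and no other treatment or allele is given in the labels. The series compares the G34R and G34V forms of H3, with WT and Set2D cells beside them. Whether a group's 3 libraries are separate cultures is not stated, so each p-value reflects only how these libraries scatter, which may be technical.

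Clr1, Clr2, Clr3 and Mit1 are the subunits of SHREC, a repressor complex that joins a histone deacetylase to a chromatin remodeller of the Snf2 family. SHREC is brought to the silent mating-type region, the centromeres and the telomeres, where it removes acetyl groups from histone H3, limits the access of RNA polymerase II and helps heterochromatin to spread and persist. Clr3 is its histone deacetylase and Mit1 its ATP-dependent remodeller, while Clr1 and Clr2 join these activities together. Sir2 is a separate deacetylase that uses NAD+, acts on the H3 tail and works beside SHREC at the same regions. The clr genes (cryptic loci regulators) are named for mutants in which the silent mating-type genes become active.

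The libraries held 65797517 to 228726069 counts in genes, and the members were counted 2788 to 26937 times per library. Values are counts scaled to the library total with TMM factors (CPM), given for each library or as mean ± SD with n = 3. Changes are log2 fold changes with their standard error (SE) or 95% interval, and a gene was called when its adjusted p in the quasi-likelihood test of edgeR (Benjamini-Hochberg, 6602 genes tested) was under 0.05. In Set2D replicate 3 all nonzero counts were even, and halving them ended 1 member's call (sir2 in G34R against Set2D, edgeR adjusted p = 0.064). The deleted gene checked the labels: set2 stood at 122.3 to 132.8 CPM in WT and at 3.69 to 4.38 CPM in the Set2D libraries. It was also lower in G34R, at 108.6 to 111.8 CPM (log2 fold change −0.22, SE 0.037).

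All 5 members passed the filter on low counts, and each was expressed in every group. In WT, the deacetylase gene clr3 (SPBC800.03, chromosome II) was the most abundant per length, at 50.4 ± 1.28 CPM per kilobase of transcript. The zinc finger protein gene clr1 (SPBC2D10.17, chromosome II) was at 26.3 ± 0.148 CPM per kilobase and clr2 (SPAC1B3.17, chromosome I) at 24.9 ± 1.37. The sirtuin gene sir2 (SPBC16D10.07c, chromosome II) followed at 22.7 ± 0.581 and the remodeller gene mit1 (SPBP35G2.10, chromosome II) at 22.3 ± 0.244. Library values of clr1 and clr2 overlapped on this scale, as did those of sir2 and mit1. Lengths came from a later genome build (ASM294v3) than that used for counting. Per kilobase of coding sequence clr3 was still first, at 59.9 CPM, but clr2 came next at 38.3, and clr1 followed sir2 (31.6) at 28.6. Among 5068 tested protein-coding genes, clr3 was higher per kilobase of transcript than 55.8% of genes in WT, and the other 4 members were higher than 21.5% to 27.1%.

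Against WT the 5 transcripts changed by small amounts and in different directions: clr3 was lower in G34R alone, mit1 higher in every mutant, clr2 higher in Set2D and lower in G34R, clr1 lower in G34V and Set2D, and sir2 lower in G34R and Set2D. In G34R 4 of the 5 members were called, where 53.4% of all tested genes were. Of these members 1 was higher (26.8% of all genes) and 3 were lower (26.6%). The sir2 call among them stayed in only 3 of 12 alternative settings. In G34V 2 were called against 50.1% of all genes, 1 higher (25.1%) and 1 lower (25%). In Set2D 4 were called against 70.1% of all genes, 2 higher (34.5%) and 2 lower (35.6%), and this count went to 2 without WT replicate 3. The libraries of mutant and WT did not overlap for 4 members in G34R (62.4% of all genes), 3 in G34V (57.9%) and 4 in Set2D (71.9%). With 5 members such shares are coarse. In bulk RNA, fewer cells with a transcript and less of it per cell cannot be told apart. In a test against a fold of 1.2, the lowest edgeR adjusted p of a member against WT was 0.13, for clr2 in Set2D. The members' median log2 fold change was −0.07 in G34R, −0.04 in G34V and −0.0062 in Set2D. Over all tested genes the medians were −0.0022, −0.0060 and −0.0057, and the median size of change was 0.11, 0.10 and 0.17.

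**Figure D1:**
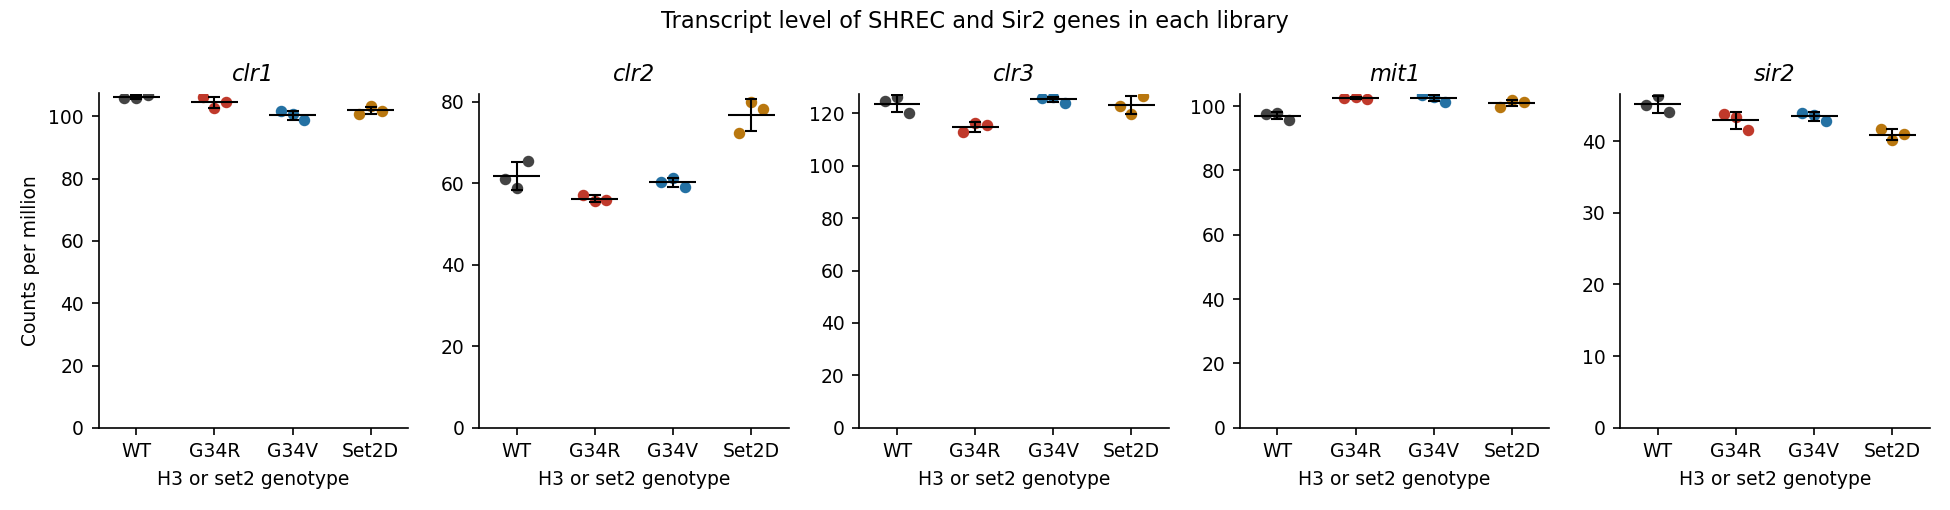
Transcript level (CPM) of clr1, clr2, clr3, mit1 and sir2 in the 12 libraries, by genotype; points are libraries, lines the mean of 3 and bars ± SD. The groups lie close together in every panel, and the clearest step is clr2, at 72.5 to 79.9 CPM in Set2D against 58.8 to 65.5 CPM in WT.

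The 2 catalytic subunits of SHREC moved little and differently. For the deacetylase gene clr3, CPM was 124.9, 126.1 and 120.2 (WT), 112.7, 116.4 and 115.5 (G34R), 125.8, 126.1 and 124.1 (G34V), and 122.9, 119.7 and 126.7 (Set2D). All G34R libraries were below every library of the other groups, and those of WT, G34V and Set2D overlapped. Against WT, clr3 fell in G34R by 0.11 on the log2 scale (SE 0.025, edgeR adjusted p = 0.0023), which is a change of −7.12%. It was also lower in G34R than in G34V (−0.13, SE 0.025, edgeR adjusted p = 0.00090) and than in Set2D (−0.10, SE 0.025, edgeR adjusted p = 0.0025). In G34V and Set2D it was not called against WT, with 95% intervals of −2.40% to 5.19% and −4.08% to 3.36%.

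The remodeller gene mit1 was slightly higher in every mutant. Its CPM was 97.4, 97.8 and 95.8 (WT), 102.5, 102.7 and 102.1 (G34R), 103.4, 102.7 and 101.3 (G34V), and 99.8, 101.8 and 101.2 (Set2D). All 9 mutant libraries were above all 3 WT libraries. The log2 fold change was 0.08 in G34R (SE 0.019, edgeR adjusted p = 0.0028), 0.08 in G34V (SE 0.019, adjusted p = 0.0032) and 0.06 in Set2D (SE 0.019, adjusted p = 0.015). These comparisons share the WT libraries. Leaving out WT replicate 3 ended the Set2D call (edgeR adjusted p = 0.054). No pair of mutants was called different for mit1, and the interval of G34R against G34V was −2.90% to 2.86%.

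The subunit gene clr2 had the largest change of the 5. Its CPM was 61.1, 58.8 and 65.5 (WT), 57.2, 55.6 and 56.0 (G34R), 60.3, 61.3 and 59.1 (G34V), and 72.5, 79.9 and 78.2 (Set2D). The Set2D libraries were above all others and the G34R libraries below all others, while WT and G34V overlapped. In Set2D clr2 rose by 24.3% (log2 fold change 0.31, SE 0.039, edgeR adjusted p = 3.8e-06), and 17.7% of the tested protein-coding genes had a larger change in that comparison. In G34R it fell by 0.14 on the log2 scale (SE 0.039, edgeR adjusted p = 0.0082), so that it stood on opposite sides of WT in these mutants. The difference between them was itself called, with clr2 at −0.45 in G34R against Set2D (SE 0.039, edgeR adjusted p = 8.2e-08), and at −0.35 in G34V against Set2D (SE 0.040, adjusted p = 2.0e-06). In G34V against WT clr2 was not called (interval −8.16% to 3.30%).

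The other linking subunit gene, clr1, had a CPM of 105.9, 105.8 and 106.9 (WT), 106.2, 102.6 and 104.5 (G34R), 101.6, 100.6 and 98.7 (G34V), and 100.9, 103.2 and 101.6 (Set2D). The G34V and Set2D libraries were below all WT libraries, and those of G34R overlapped WT. It fell by 0.08 on the log2 scale in G34V (SE 0.021, edgeR adjusted p = 0.0046) and by 0.06 in Set2D (SE 0.021, adjusted p = 0.018). In G34R it was not called (interval −4.66% to 1.37%). The G34V call was lost with upper quartile scaling (edgeR adjusted p = 0.056). The Set2D call was lost with upper quartile scaling, with protein-coding genes alone, with only the 2 groups compared and with total counts, where the change was 0.0028 (adjusted p = 0.93). It was lost too without WT replicate 1, WT replicate 3 or Set2D replicate 1 (edgeR adjusted p = 0.059, 0.051 and 0.057).

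The sirtuin gene sir2, the member outside SHREC, was lowest in Set2D. Its CPM was 45.0, 46.3 and 44.0 (WT), 43.8, 43.3 and 41.6 (G34R), 43.9, 43.7 and 42.8 (G34V), and 41.6, 40.1 and 41.0 (Set2D). All mutant libraries were below the WT libraries, by a narrow margin in G34V. In Set2D sir2 fell by 0.14 on the log2 scale (SE 0.029, edgeR adjusted p = 0.00042), a change of −9.33%. In G34R it fell by 0.07 (SE 0.028, edgeR adjusted p = 0.039). That call was lost without WT replicate 1, WT replicate 2, G34R replicate 2, G34R replicate 3 or G34V replicate 2 (adjusted p = 0.079, 0.16, 0.059, 0.19 and 0.051). It was also lost with every other scaling tried, at adjusted p = 0.051 to 0.30, with DESeq2 (0.051), with a stricter count filter (0.052), with protein-coding genes alone (0.20) and with only the 2 groups compared (0.062). In G34V the change was −0.05 and was not called (edgeR adjusted p = 0.15).

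**Figure D2:**
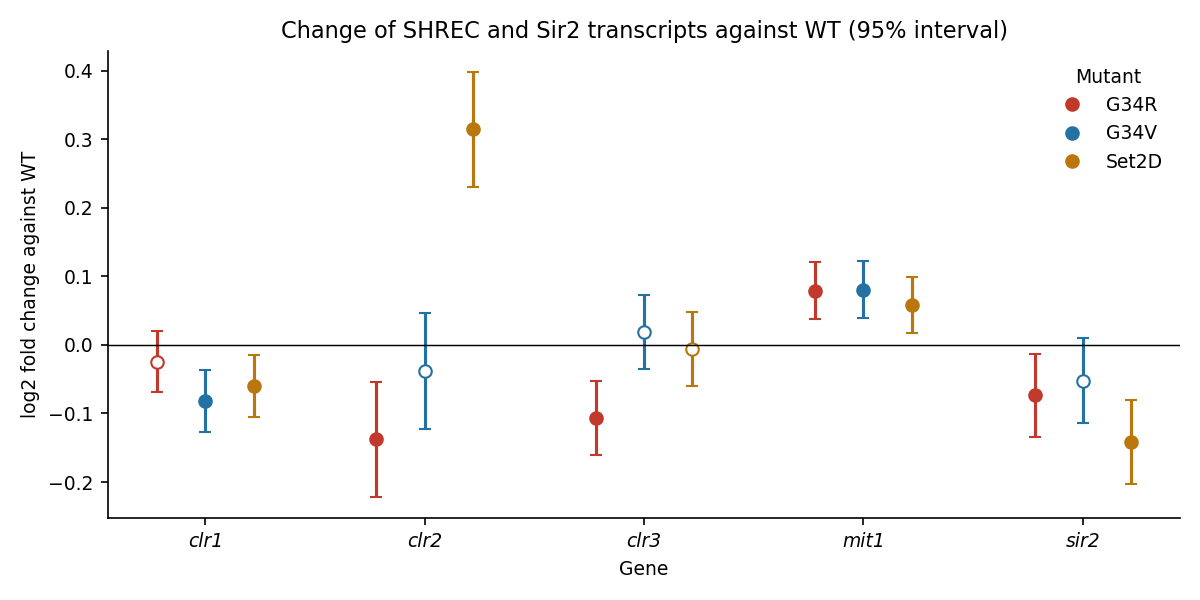
Log2 fold change against WT of each member in G34R, G34V and Set2D cells; bars are 95% intervals of edgeR's fit with n = 3 libraries a group, filled points were called and open points were not. Apart from clr2 in Set2D at 0.31, every change lies between −0.14 and 0.08.

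Between the mutants, 3 members were called in G34R against G34V, 1 higher and 2 lower, where 50.5% of all genes were called (25.2% higher and 25.3% lower). Libraries did not overlap for 3 members and for 60.7% of all genes. Beside clr3, clr1 was higher in G34R (0.06, edgeR adjusted p = 0.034) and clr2 lower (−0.10, adjusted p = 0.049). The clr1 call was lost without G34R replicate 1 or 3 or G34V replicate 2 or 3 (adjusted p = 0.13, 0.076, 0.070 and 0.12) and with upper quartile scaling (0.11). Leaving out any of these libraries left 1 member called, clr3. The clr2 call was lost without 8 of the 12 libraries in turn (adjusted p = 0.054 to 0.15), namely WT replicate 1, Set2D replicate 3 and each G34R and G34V replicate. It was lost too with total counts, the stricter count filter, protein-coding genes alone and limma (adjusted p = 0.054 to 0.15). In G34R against Set2D 3 members were called, 1 higher and 2 lower, beside 69.4% of all genes (34% higher and 35.4% lower), and 3 did not overlap, beside 72%. They were clr2, clr3 and sir2, the last of them higher in G34R with overlapping libraries (0.07, edgeR adjusted p = 0.048). Its call was lost without 8 of the 12 libraries in turn (adjusted p = 0.056 to 0.18), namely WT replicate 1, G34R replicates 1 and 2, each G34V replicate and Set2D replicates 2 and 3. It was lost too with upper quartile scaling, total counts, no count filter, protein-coding genes alone, limma, only the 2 groups compared and the halved library (adjusted p = 0.052 to 0.34). In G34V against Set2D 2 members were called, 1 higher and 1 lower, beside 62.5% of all genes (29.6% higher and 32.8% lower), and 2 did not overlap, beside 64.9%. These were clr2, and sir2, which was higher in G34V (0.09, SE 0.029, edgeR adjusted p = 0.016). Without G34V replicate 1 or Set2D replicate 2 the sir2 call was lost (adjusted p = 0.057 and 0.062), which left 1 member called, and it was lost with total counts (adjusted p = 0.52), with which clr1 was called lower in G34V (adjusted p = 0.0094).

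Summed over the 4 SHREC subunits, CPM was 388.4 to 389.3 in WT, 377.3 to 378.6 in G34R, 383.2 to 391.0 in G34V and 396.0 to 407.8 in Set2D. With TMM scaling the sum was thus below all WT libraries in G34R, above them in Set2D and overlapping in G34V. The TMM factors were 0.976 to 0.995 in WT and 0.998 to 1.01 in G34R, so the separation in G34R depends on this scaling. The sum was not recomputed with other scalings. Of the subunits in Set2D, clr2 differed most from WT (mean 76.9 against 61.8 CPM). Means were 100.9 against 97.0 for mit1, 123.1 against 123.7 for clr3 and 101.9 against 106.2 for clr1. On the scale of CPM per kilobase of transcript, clr2 made up 20.1% ± 1.11 of the subunit sum in WT and 23.9% ± 0.915 in Set2D. On this scale mit1 made up 18.0% ± 0.196 in WT and 19.8% ± 0.0713 in G34R. A share also depends on the other subunits: that of clr1 was 21.2% in WT and 21.7% in G34R, where clr1 was not called.

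The files also counted an antisense RNA for clr3 and for mit1, and these RNAs changed far more than the genes themselves. Transcription against the direction of a gene is a known feature of cells without Set2, which marks the bodies of transcribed genes and limits initiation within them. The antisense RNA of clr3 (clr3-antisense-1) had a CPM of 4.01, 3.84 and 4.06 (WT), 5.75, 5.93 and 5.74 (G34R), 4.54, 4.06 and 4.36 (G34V), and 13.3, 12.8 and 13.5 (Set2D). The Set2D libraries were above all others and the G34R libraries above those of WT and G34V. It rose 3.33-fold in Set2D (log2 fold change 1.73, SE 0.049, edgeR adjusted p = 7.7e-14) and by 0.55 on the log2 scale in G34R (SE 0.050, adjusted p = 4.3e-07). In G34V the value was 0.13 and was not called (edgeR adjusted p = 0.067), except without G34V replicate 2 (adjusted p = 0.032) and with upper quartile scaling (adjusted p = 0.030). The direct comparison called it higher in G34R than in G34V (0.42, SE 0.053, edgeR adjusted p = 1.6e-05).

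The antisense RNA of mit1 (mit1-antisense-1) had a CPM of 5.97, 6.23 and 6.96 (WT), 7.48, 7.75 and 7.66 (G34R), 7.68, 8.47 and 9.80 (G34V), and 15.4, 16.8 and 16.0 (Set2D). Every mutant library was above the WT libraries, and those of G34R and G34V overlapped. It rose 2.51-fold in Set2D (1.33, SE 0.072, edgeR adjusted p = 2.7e-10), by 0.41 on the log2 scale in G34V (SE 0.077, adjusted p = 0.00046) and by 0.25 in G34R (SE 0.074, adjusted p = 0.0094). G34R and G34V were not called different (edgeR adjusted p = 0.096), except without G34V replicate 1 (adjusted p = 0.013).

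**Figure D3:**
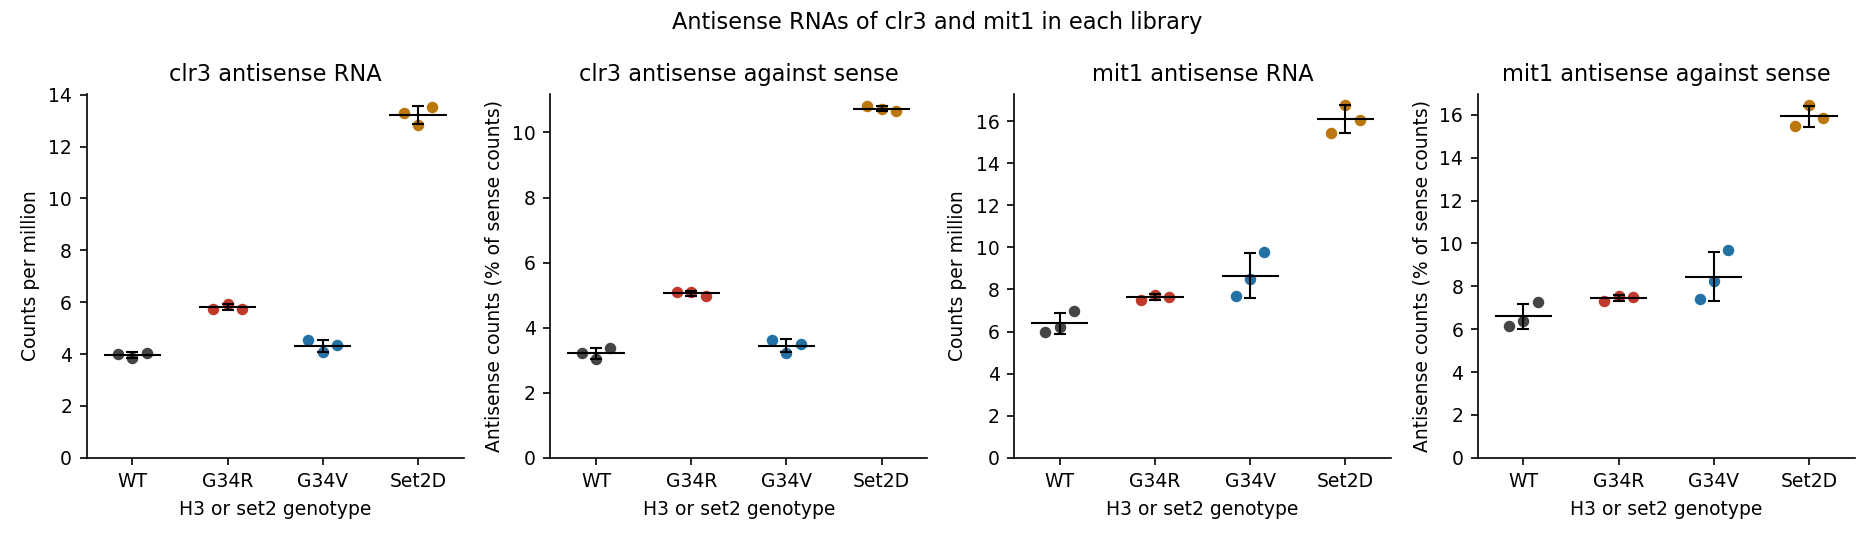
Antisense RNAs of clr3 and mit1 in the 12 libraries, as CPM in 1 panel and as a percent of the sense counts of the same library in the next; points are libraries, lines the mean of 3 and bars ± SD. The Set2D libraries stand apart in all panels, at 10.7% to 10.8% of sense for clr3 and 15.5% to 16.5% for mit1.

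Within single libraries, antisense counts of clr3 were 3.04% to 3.38% of sense counts in WT, 4.97% to 5.10% in G34R, 3.22% to 3.61% in G34V and 10.7% to 10.8% in Set2D. For mit1 they were 6.13% to 7.27% in WT, 7.30% to 7.55% in G34R, 7.43% to 9.67% in G34V and 15.5% to 16.5% in Set2D. The ratios of WT and G34V overlapped for clr3, and no mutant overlapped WT for mit1. The sense transcripts moved little beside this: in Set2D clr3 was not called and mit1 was 4.10% higher than in WT. The rise was common among antisense RNAs. Of the 617 tested antisense RNAs named after a sense gene, 479 rose and 54 fell in Set2D, with a median log2 fold change of 0.54, where 34.5% of all genes were called higher. The change of the clr3 antisense RNA in Set2D was larger than that of 96.3% of these RNAs, and that of mit1 larger than 89.1%. In G34R these shares were 83.3% for clr3 and 46.4% for mit1, and in G34V 35.2% and 73.3%. With a median of 0.27, 444 rose and 29 fell in G34R; the median was 0.23 in G34V, where 379 rose and 41 fell, beside 26.8% and 25.1% of all genes called higher. The files held no antisense rows named after clr1, clr2 or sir2.

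Several coding genes next to the members changed more than the members did. By the later build, sir2 lies between hsp104, which encodes a disaggregase of heat-damaged proteins and is transcribed in the same direction, and zrt1, a zinc transporter gene on the other strand that overlaps sir2 by 114 bases. In the 3 mutants, zrt1 rose by 0.98 (G34R), 0.96 (G34V) and 1.34 (Set2D) on the log2 scale, the last from 461 ± 39.6 to 1171 ± 27.0 CPM (edgeR adjusted p = 6.8e-12). The hsp104 transcript rose by 0.32, 0.37 and 0.85, in Set2D from 484 ± 14.6 to 870 ± 30.7 CPM (edgeR adjusted p = 6.5e-12). Between them sir2 was lower than in WT or not called. Of 26 noncoding RNAs lying inside a coding gene on the opposite strand, 19 had more than 3 counts in every library, as counting by strand allows.

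Near clr2, the biotin transporter gene vht1 moved against it, from 1743 ± 76.5 CPM in WT to 891 ± 84.0 in Set2D (−0.97, SE 0.056, edgeR adjusted p = 6.7e-10), while it rose in G34V (0.39, SE 0.056, adjusted p = 5.4e-05). The other neighbour of clr2, the mitochondrial ribosomal protein gene mrps18, was lower in Set2D (−0.24, SE 0.027). Beside clr3, whi5, a homologue of a budding yeast repressor of cell cycle entry, was higher in G34R (0.15, SE 0.036, edgeR adjusted p = 0.0022), where clr3 was lower, and itself lower in G34V (−0.13) and Set2D (−0.16), where clr3 was not called. The ribosomal protein gene rpl4301, on the other side of clr3, was lower in G34R as clr3 was (−0.18, SE 0.062, edgeR adjusted p = 0.028), a call lost without WT replicate 1 or 3 or G34R replicate 2 or 3 (adjusted p = 0.068 to 0.10), and with upper quartile scaling, total counts and protein-coding genes alone (0.057 to 0.063). Beside clr1, mhf1, a histone-fold protein gene that overlaps it by 57 bases on the same strand, was lower in G34R (−0.17, SE 0.052), where clr1 was not called, and in Set2D (−0.25, SE 0.053, edgeR adjusted p = 0.00054), where clr1 was lower. Beside mit1, nbr1, which encodes an autophagy receptor, fell in Set2D from 72.0 ± 1.02 to 52.7 ± 2.43 CPM (−0.45, SE 0.042) and in G34V (−0.22, SE 0.042), where mit1 was higher. The splicing factor gene usp103, on its other side, fell in G34R (−0.21, SE 0.051) and in Set2D (−0.21, SE 0.052). The gene on the other side of clr1, coq8, was left out because its older name is also the symbol of another gene. Of the 9 flanking genes measured, 3 rose and 3 fell in each H3 mutant, where 53.4% (G34R) and 50.1% (G34V) of all genes were called. In Set2D 2 rose and 6 fell, beside 34.5% and 35.6% of all genes.

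**Figure D4:**
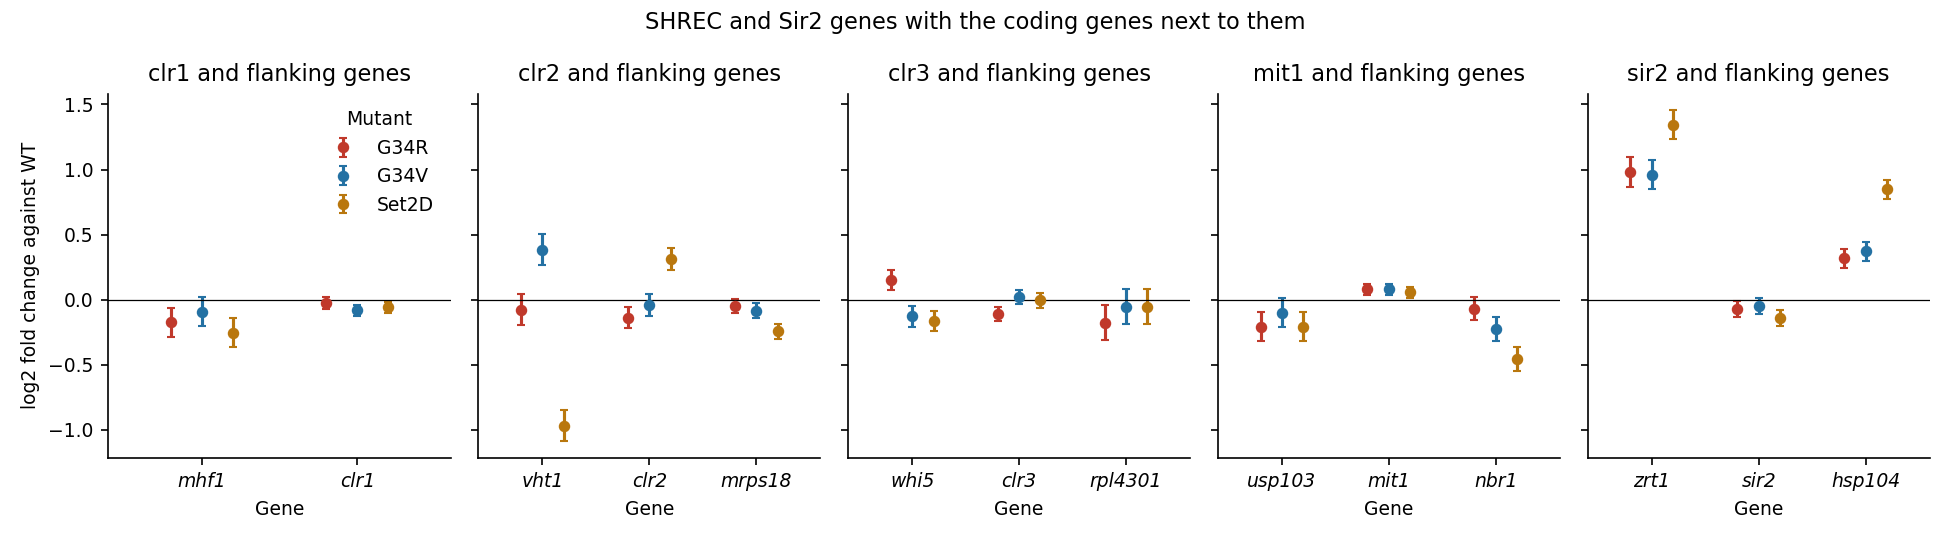
Log2 fold change against WT of each member (middle of its panel, or right for clr1) and of the flanking protein-coding genes measured, in G34R, G34V and Set2D; bars are 95% intervals of edgeR's fit, n = 3 libraries a group. In the panel of sir2, both flanking genes are higher in all mutants (0.32 to 1.34), and sir2 lies between −0.14 and −0.05.

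The other histone deacetylase genes were all lower in Set2D, where 35.6% of all genes were called lower. Of 4 tested, 4 fell in Set2D, 1 in G34R (26.6% of all genes) and 1 in G34V (25%), and none rose. The deacetylase gene clr6, the homologue of budding yeast RPD3 that acts with Set2 in gene bodies, fell from 91.9 ± 0.880 to 77.0 ± 3.50 CPM in Set2D (−0.25, SE 0.029, edgeR adjusted p = 1.1e-06), and was at −0.02 in both H3 mutants, not called. The sirtuin gene hst4 fell in all 3 mutants, by 0.19 in G34R, 0.15 in G34V and 0.16 in Set2D on the log2 scale (edgeR adjusted p = 9.8e-06, 7.5e-05 and 1.9e-05). The smallest change in Set2D was that of the sirtuin gene hst2 (−0.08, edgeR adjusted p = 0.033), a call lost with upper quartile scaling (adjusted p = 0.31), with total counts (adjusted p = 0.70), with protein-coding genes alone (0.22), with only the 2 groups compared (0.062) and without 5 libraries in turn (WT replicates 1, 2 and 3 and Set2D replicates 2 and 3, adjusted p = 0.056 to 0.20). That of hos2 (−0.14) was lost with total counts (adjusted p = 0.051).

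Genes of H3K9 methylation and of the proteins that read it moved in both directions, 3 higher and 2 lower of 10 (G34R), 2 and 4 (G34V), and 4 and 3 (Set2D). Of all genes, 53.4%, 50.1% and 70.1% were called in these comparisons. Some of the calls were weak: raf2 in G34R, stc1 in G34V and pcu4 in Set2D were each lost without some single libraries (edgeR adjusted p = 0.051 to 0.16). The methyltransferase gene clr4 was not called in any mutant against WT (0.03, −0.02 and 0.03), though called higher in Set2D with total counts (edgeR adjusted p = 0.035) and without WT replicate 1 (adjusted p = 0.0497). The gene of the HP1 protein Chp2, through which SHREC is held at heterochromatin, rose from 39.4 ± 1.60 CPM in WT to 45.4 ± 1.12 in G34R and 45.2 ± 0.629 in G34V (0.21 and 0.20, edgeR adjusted p = 6.5e-05 and 0.00014). It was also called higher in Set2D (0.09, adjusted p = 0.018), except without WT replicate 1 or Set2D replicate 2 (0.075 and 0.086). The gene of the other HP1 protein, swi6, rose in all 3 mutants, by 0.19 in G34R, 0.07 in G34V and 0.11 in Set2D on the log2 scale (edgeR adjusted p = 9.7e-06, 0.018 and 0.00093). The G34V call was lost without WT replicate 1, G34V replicate 1 or G34V replicate 3 (adjusted p = 0.067, 0.057 and 0.0502) and with total counts (0.069). The gene stc1, whose product links RNA interference to the methyltransferase complex, fell in Set2D from 12.4 ± 0.838 to 8.61 ± 0.793 CPM (−0.53, SE 0.060, edgeR adjusted p = 1.1e-06). The gene of the anti-silencing factor Epe1 fell in G34V and Set2D (−0.16 and −0.17, edgeR adjusted p = 1.3e-05 and 1.6e-06).

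Among 5 factors known to bring SHREC to chromatin, 1 rose in G34R and none fell, 2 fell in G34V and 2 in Set2D. Of all genes, 53.4% (G34R), 50.1% (G34V) and 70.1% (Set2D) were called. The telomere protein gene ccq1 fell in G34V (−0.15, SE 0.024) and in Set2D (−0.24, SE 0.024, edgeR adjusted p = 3.4e-07), and was at −0.02 in G34R, not called. The stress transcription factor genes atf1 (G34V, −0.15, adjusted p = 0.044) and pcr1 (Set2D, −0.18, adjusted p = 0.0089) were the other decreases, and the RNA-binding protein gene seb1 (G34R, 0.07, edgeR adjusted p = 0.042) the increase. The atf1 call was lost without any of WT replicates 2 and 3, G34R replicate 2, G34V replicate 3 and Set2D replicates 2 and 3 (adjusted p = 0.053 to 0.12). It was also lost with upper quartile, RLE or total count scaling, protein-coding genes alone and only the 2 groups compared (adjusted p = 0.052 to 0.11). That of seb1 was lost without any of WT replicates 1 and 2, the 3 G34R replicates, G34V replicate 2 and Set2D replicate 2 (adjusted p = 0.053 to 0.18), and with only the 2 groups compared (0.052). The pcr1 call was lost with total counts (adjusted p = 0.095).

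Of 8 RNA interference genes, 4 were called higher and 1 lower in G34R (26.8% and 26.6% of all genes), 5 and 1 in G34V (25.1% and 25%), and 6 and 1 in Set2D (34.5% and 35.6%). The list itself was not tested. Of the Set2D calls, that of the Dicer gene dcr1 (0.08) was lost without WT replicate 1 or 2 or Set2D replicate 2 or 3 (edgeR adjusted p = 0.057 to 0.13). The RNA-directed RNA polymerase gene rdp1 rose in Set2D from 111 ± 1.28 to 147 ± 3.99 CPM (0.41, SE 0.024, edgeR adjusted p = 4.2e-10), which was larger than the change of clr2. The Argonaute chaperone genes arb1 and arb2 rose in all mutants, by 0.12 to 0.23 and by 0.14 to 0.23 on the log2 scale, and hrr1, a helicase gene, fell in all (−0.13, −0.09 and −0.15). Of 9 Snf2 family remodeller genes, the family of mit1, 2 rose and 1 fell in G34R, where 53.4% of all genes were called. In G34V 1 rose (50.1% of all genes called), and in Set2D 3 rose and 3 fell (70.1%). The one that rose in all 3 was fft1 (0.22, 0.18 and 0.23, edgeR adjusted p at most 0.00015). Of 5 genes of the Asf1 and HIRA histone chaperones, which help deacetylases act in heterochromatin, 0 were called by edgeR in G34R. There 2 had an unadjusted p under 0.05 (asf1 and hip3), and DESeq2 called 1 (hip3) and limma 0. Under other settings edgeR called hip3 higher in G34R: upper quartile, RLE or total count scaling, the stricter count filter and protein-coding genes alone (adjusted p = 0.0037 to 0.036). It called asf1 higher with upper quartile scaling, total counts, protein-coding genes alone, only the 2 groups compared and without Set2D replicate 1 (edgeR adjusted p = 0.022 to 0.049). In G34V 2 fell, and in Set2D 1 rose and 3 fell, beside the same shares of all genes called. The hip3 decrease in G34V was lost with upper quartile scaling (edgeR adjusted p = 0.15) and with protein-coding genes alone (0.061). That of slm9 in Set2D was lost with total counts (edgeR adjusted p = 0.18). The HIRA genes hip1 (−0.46, SE 0.029) and hip3 (−0.41, SE 0.020, edgeR adjusted p = 5.3e-11) led the decreases in Set2D.

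**Figure D5:**
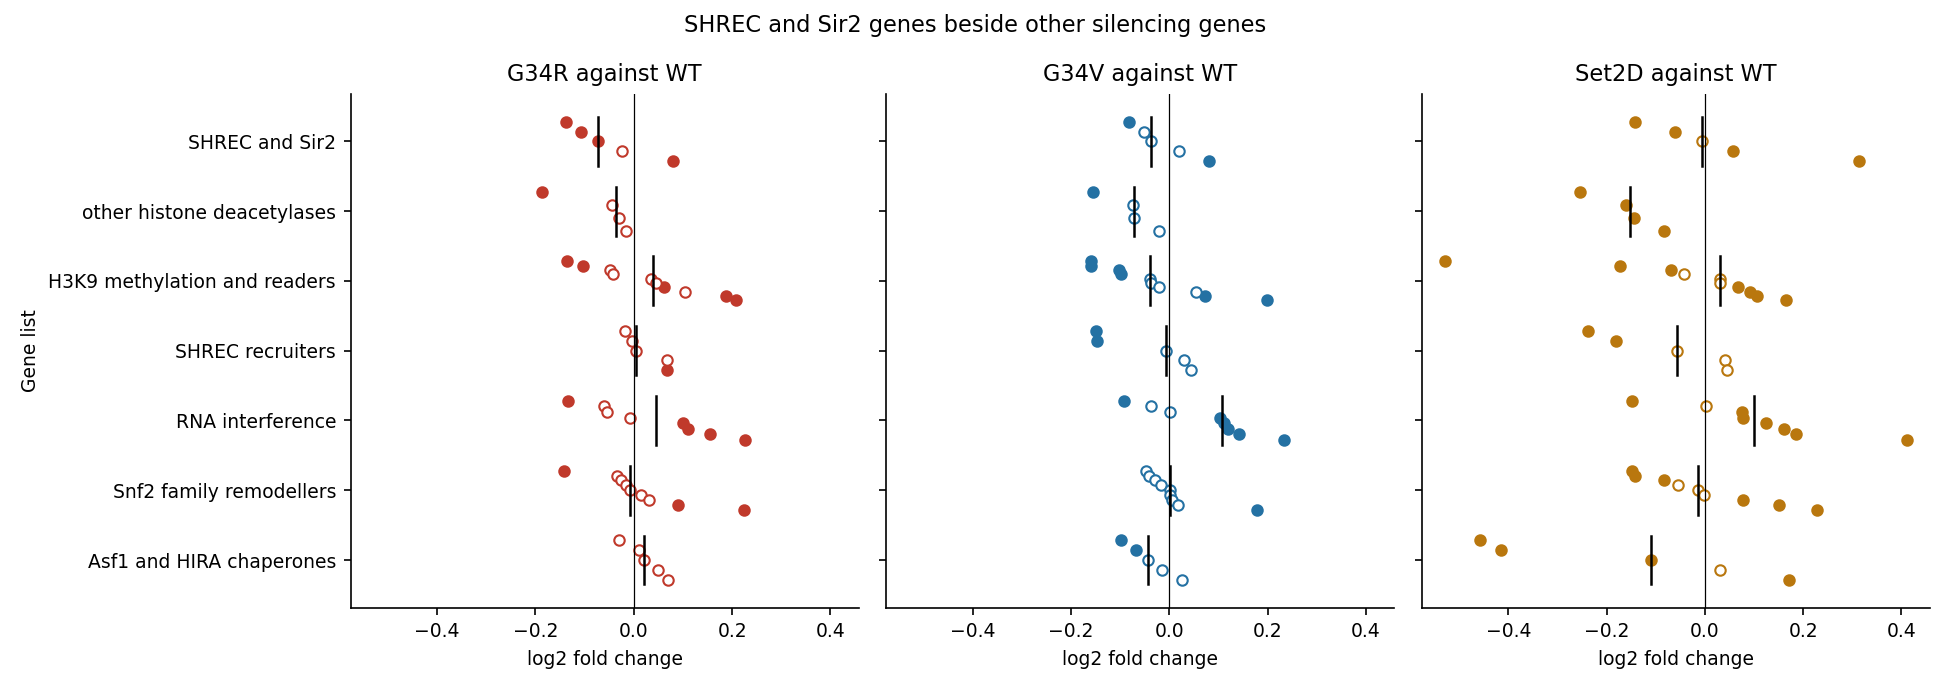
Log2 fold change against WT of the members (top row) and of 6 lists of other silencing genes, in G34R, G34V and Set2D; each point is a gene, filled where called and open where not, and vertical bars are list medians. The members lie within the range of the other lists, and in Set2D the outermost points are stc1 (−0.53), hip1 (−0.46) and rdp1 (0.41).

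Over the 7 lists, including the helicase genes below, 43 genes were tested, of which 10 rose and 6 fell in G34R, 8 rose and 11 fell in G34V, and 16 rose and 16 fell in Set2D, where 53.4%, 50.1% and 70.1% of all genes were called. The subtelomeric helicase genes tlh1 and tlh2 lie in regions that SHREC helps to silence. The tlh2 transcript was at 18.0 to 19.5 CPM in WT, 10.4 to 12.7 in G34R, 5.67 to 7.10 in G34V and 58.2 to 62.2 in Set2D, with no overlap between groups. The tlh1 transcript was at 0.727 to 0.902 CPM in WT and 2.23 to 2.69 in Set2D (1.58, edgeR adjusted p = 3.6e-07), and not called in G34R or G34V. These genes are near-identical copies, so their single values are uncertain. Whether their levels are related to those of the members was not tested.

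The genes nearest in pattern to each member were found among tested protein-coding genes within 2-fold of its mean CPM, by the root mean square difference of the 3 log2 fold changes against WT. For clr2, with 2412 candidates, they were plp2 (difference 0.028) and med6 (0.033), against a median of 0.24 over the candidates. The plp2 gene was at −0.10, −0.06 and 0.29 in G34R, G34V and Set2D. For sir2 they were tim8 (0.00095) and sap145 (0.0095), for clr3 rpb10 (0.0054) and dis2 (0.0076), for clr1 gmh6 (0.0060) and mtm1 (0.0078), and for mit1 ucp12 (0.0091) and SPBC1539.02 (0.011). All these differences were below the SE of the member's own changes against WT (0.019 for mit1 to 0.040 for clr2). With 2067 to 2412 candidates per member, which gene is nearest is therefore uncertain. Among the members, clr1 and sir2 were closest to each other (0.057), and clr2 and sir2 were farthest apart (0.27). Within SHREC, clr1 and clr3 differed least (0.081), and clr2 differed from the other subunits by 0.19 to 0.23.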

How the data were processed

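The members, gene lists and alternatives were chosen with earlier results of these data known. The deposited values were integer read counts per gene, 1 file for each of 12 libraries, with 7013 genes and 5 HTSeq summary lines (left out of the tests) per file. Per the submitters' processing notes, the authors used CASAVA 1.7, cutadapt, STAR, SAMtools and HTSeq with build ASM294v2. Their options and other versions are not given in the sources used. Per the labels' protocols, DNase-treated RNA (2 µg a library) lost its ribosomal RNA by depletion before stranded libraries were prepared. Reads aligned to several places (11.0% to 13.6%) and reads in overlapping genes (2.08% to 2.16%) were not assigned to genes.

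Counts were filtered with filterByExpr in edgeR 4.0.16 (6602 genes tested, 411 not), scaled by TMM and fitted with the robust quasi-likelihood model over all 12 libraries, with 8 residual degrees of freedom. SE came from the fold change and F, and CPM from counts and scaled library sizes. The common coefficient of variation was 3.32%. Intervals cover the spread between libraries and counting error only. On simulated counts for 6602 genes with 50 genes changed per size, 50%, 34% and 42% of 1.1-fold changes and 98%, 92% and 96% of 1.25-fold changes were found for G34R, G34V and Set2D against WT.

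Names, neighbours and lengths came from the RefSeq annotation of ASM294v3, which left 777 of 7013 names unmatched. Named genes were the members, their antisense rows, flanking genes, context lists (up to 3 genes of lowest adjusted p each) and the nearest patterns. The genes clr4, hst2, dcr1 and slm9, and further values of chp2, swi6, arb1 and arb2, were added after they were seen. The gene asf1 was counted under its older name cia1. Counting by strand was checked on noncoding RNAs nested in oppositely transcribed coding genes. All nonzero values of Set2D replicate 3 were even (100%), so a fit with them halved was an alternative. DESeq2 1.42.0 and limma 3.58.1 were others, run in R 4.3.3.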

Additional observations from a re-analysis of the deposited data

How the results depend on the processing

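No paired analysis was possible because no replicate numbers link libraries across groups. Each member count and gene value was recomputed under 12 settings and with each of the 12 libraries left out in turn. The numbers of members called were 4 (G34R), 2 (G34V) and 4 (Set2D) against WT, and 3 (G34R against G34V), 3 (G34R against Set2D) and 2 (G34V against Set2D). Against a fold of 1.2 they were 0, 0, 0, 0, 1 and 1 in that order. At an adjusted p under 0.01 they were 2 in Set2D, 1 in G34R against G34V and 1 in G34V against Set2D, and with upper quartile scaling 1 in G34V. Smaller shifts of these counts under other settings are not listed. Against WT, the sir2 call in G34R stayed in 3 of the 12 settings and the clr1 call in Set2D in 6. Between mutants, the clr2 call in G34R against G34V stayed in 6 and the sir2 call in G34R against Set2D in 3. With libraries left out they ranged from 3 to 4, 2 to 2, 2 to 4, 1 to 3, 2 to 3 and 1 to 2. Over the members, antisense RNAs, flanking and listed genes, 8142 of 8622 recomputed values stayed on their side of the threshold, 400 lost a call, 78 gained one and 2 changed sign where the result was called, as reported or recomputed, both with total counts: clr1 in Set2D against WT (0.0028) and hrr1 in G34V against Set2D (−0.0065). The cause of these sign changes was not tested. The 8622 values include genes not called as reported and fits that left out a library outside the 2 groups compared. Their total therefore says little about how stable the calls were. Uncalled values near 0 also changed sign, among them clr1 in G34R against WT, clr3 in Set2D against WT and mit1 in G34R against G34V. The median log2 fold change of all genes in Set2D against WT was −0.0057 as reported and 0.06 with total counts. Total counts gave 2794 higher and 1621 lower genes there (2276 and 2351 as reported), 2073 and 1235 in G34R (1771 and 1753), 1997 and 1162 in G34R against G34V (1667 and 1670), and 1229 and 2855 in G34V against Set2D (1955 and 2168). Upper quartile scaling gave 2032 higher and 1165 lower in G34V (1657 and 1649). In simulated counts with 50 genes changed per size, 50%, 34% and 42% of 1.1-fold changes were found in G34R, G34V and Set2D. In the data far more genes were called (53.4%, 50.1% and 70.1%), which makes the adjusted threshold less strict. These shares therefore do not say how often a change of a member would be found, and small changes could still be missed.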
